A study of Mus musculus with 63 samples.

Results

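The genes described here encode voltage-gated calcium and sodium channels and potassium channels of sorted mouse β cells, the insulin-secreting cells of the pancreatic islet. Their symbols start with Kcn, Cacn or Scn followed by a subunit code, and each was chosen by its mean level, at least 1 CPM (a gene's count scaled to its library's total) in at least 1 of 9 groups. Of 132 such symbols in the table of 20306 genes, 90 met that level and are the members, and 42 did not. The rule also left out 1 inward rectifier gene and the epithelial sodium channel genes. Because the level chose the members, the levels below are a description.

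β cells turn glucose metabolism into an electrical signal. When potassium conductance at rest falls, the membrane depolarises, sodium and calcium channels open, calcium enters and insulin granules fuse, and voltage-gated and calcium-activated potassium channels then end each action potential. Pore subunits carry the current, auxiliary subunits (β, α2δ, KChIP and Kcne proteins) set its size and timing, and silent Kv subunits form no channel alone but change the channels they join.

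The groups were compared to follow β cells through maturation and into diabetes. All animals carried an mCherry reporter allele (Cherry/+) and Ins2-Cre/+, so the sort took mCherry-positive cells that had switched on a Cre driven by an insulin gene promoter. From wild type ICR mice came 4 libraries of embryos at E18.5, 3 each of pups at postnatal days 1 (P1) and 7 (P7), 5 at day 10 (P10) and 21 of adults, aged 84 to 364 days with blood glucose of 103 to 190 mg/dl. The 7 T1ND libraries are of NOD-ICR mice without diabetes (82 to 212 days, 108 to 245 mg/dl) and the 4 T1D libraries of NOD-ICR mice with it (98 to 150 days, 311 to 358 mg/dl, with 1 animal above 600). BTBR Ob/+ mice were the non-diabetic controls (T2H, n = 9, 53 to 179 days, 103 to 271 mg/dl) of diabetic Ob/Ob mice labelled BTBR or BTBR/mix (T2D, n = 7, 58 to 78 days, 408 to 534 mg/dl and 5 animals above 600). The sample labels mark the NOD-ICR groups as T1 and the BTBR groups as T2, whereas the series' design text names NOD and the BTBR ob/ob group alike as T1D models. The sample labels are used here. Within T2H and within T2D, 2 animals had 2 copies of Ins2-Cre. The labels do not say whether several newborns went into 1 library, and P7 libraries 1 and 2, and P10 libraries 2 and 3, share a number in their titles, as do an Adult and a T2D library. Whether such a number marks a shared source is not given, so p-values measure the spread between these samples, which may be partly technical. In such bulk samples, fewer cells of a type and less RNA per cell cannot be told apart.

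Libraries held 23894167 to 73839270 expected counts, and 12 β cell markers took 11.8 to 62.3% of them. Acinar markers took 0.00323 to 40.7%. Stromal markers exceeded 1% in 4 libraries only, P1 2 and 3 and P7 1 and 2, where they reached 3.07%. Values below are CPM scaled by trimmed mean of M values (TMM) factors, means are given with SD, and folds are log2 values ± standard error. Folds come from edgeR's fit, which includes a term for RNA extraction, and can differ from the ratio of the printed means. A gene was called changed when edgeR's two-sided quasi-likelihood test gave an adjusted p (Benjamini-Hochberg, all 16092 genes) below 0.05. All but 1 of the 90 members were tested, 89 in all. Since members passed the level rule through their highest group, their counts of calls are given beside the share of all tested genes called and support nothing about the family as such.

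Channel genes took a small part of the RNA. The 90 members together held 0.0251 to 0.0907% of a library's counts, and a library showed between 40 and 66 of them at 1 CPM or more. The rule was met in all 9 groups by 38 members and in a single group by 10, of which 8 met it only in P1 and 2 only in P7. The rule uses plain CPM, before TMM scaling, and 9 members have no group mean of 1 CPM on the scaled values used elsewhere. On plain CPM, just inside the level were Kcnj15 (1.09 in its highest group), Kcnj6 (1.11), Kcnc2 (1.15), Kcnd2 (1.19) and Cacna2d4 (1.21), and just outside it were Kcnv1 (0.987), Kcnj13 (0.945), Kcnj2 (0.932) and Scn2b (0.904). Several inward rectifiers of epithelia and glia stood high in a single library, given here on the scaled values. Kcnj1 stood at 7.34 CPM in P1 library 1, and its next highest library held 0.586. Kcnj16 stood at 4.10 CPM and Kcnj15 at 1.95 in the same P1 library, with next highest values of 0.343 and 1.04.

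**Figure D1:**
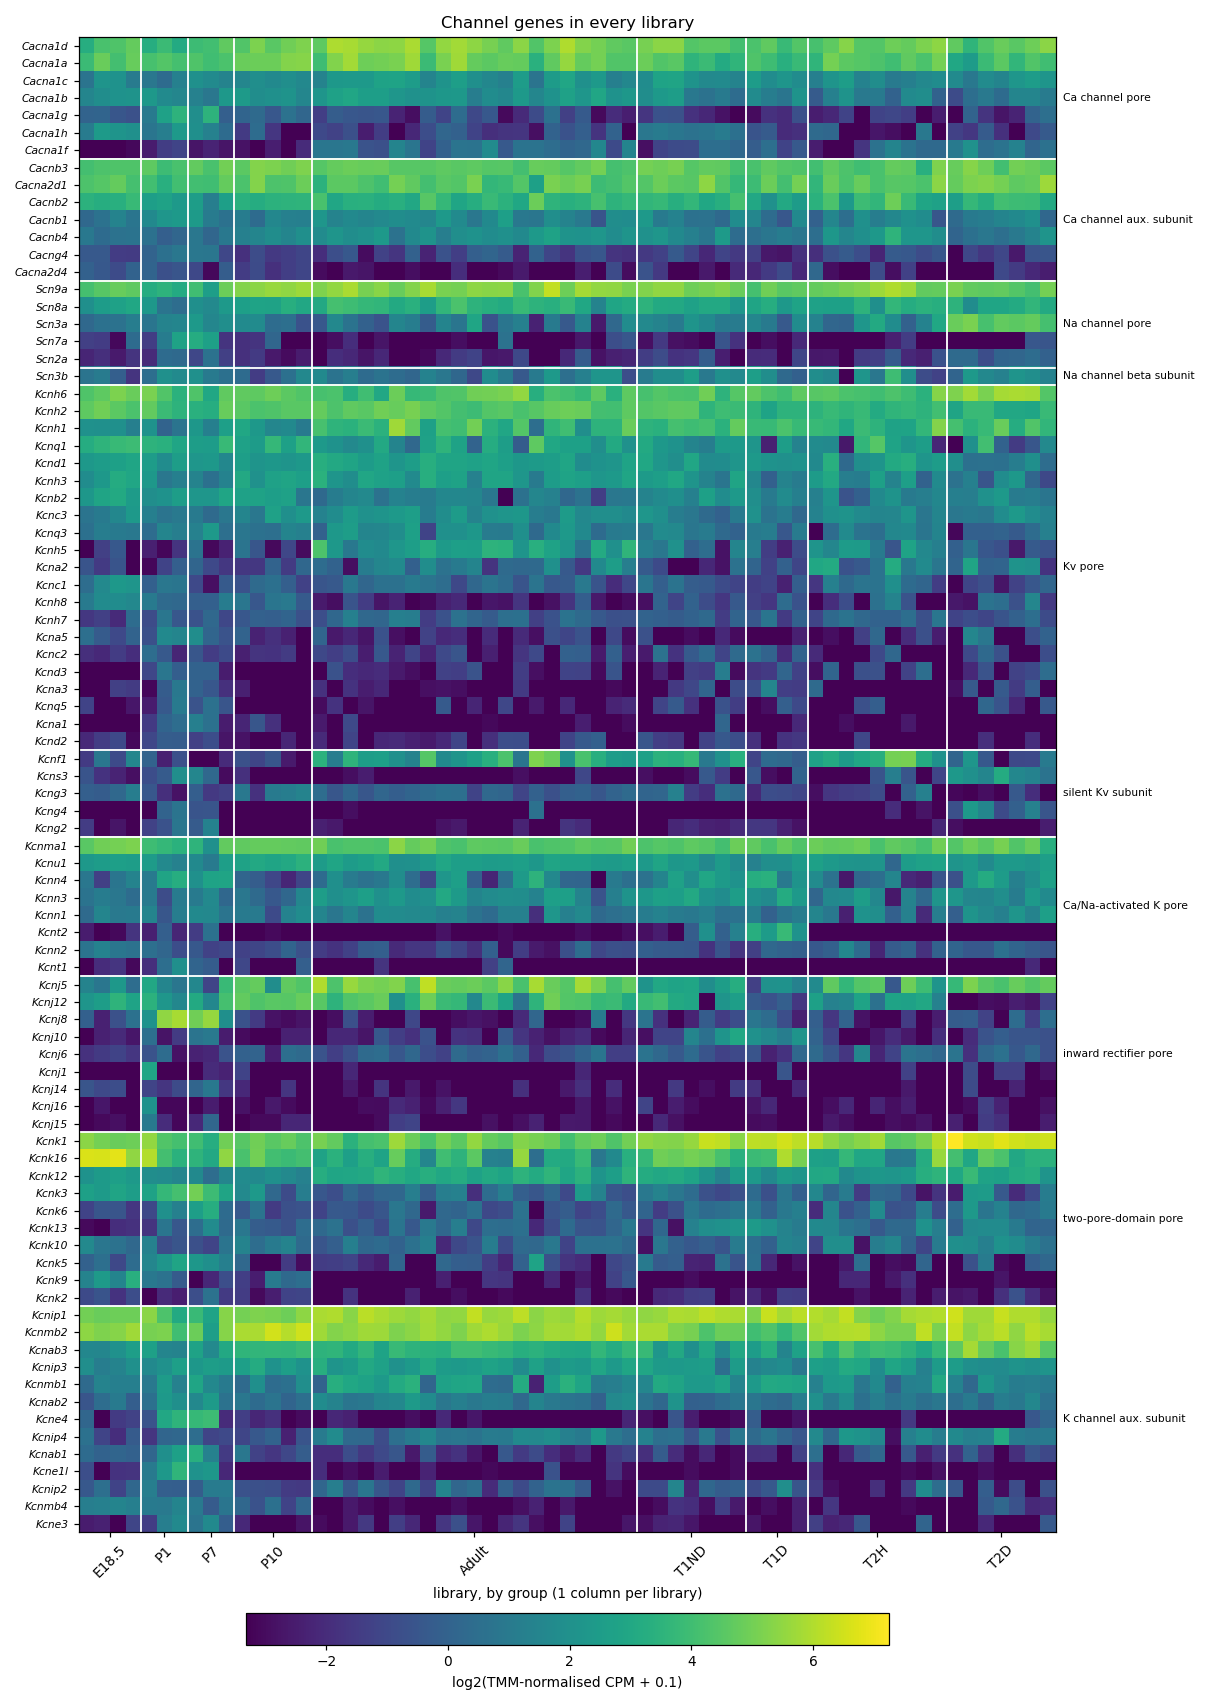
Level of 86 of the 90 channel members (rows, grouped by role) in each of the 63 libraries (columns, grouped by stage or model), as log2(CPM + 0.1). By the rule's plain CPM, 35 of the drawn members have a mean of 1 CPM in every group and 10 in P1 or P7 alone. The colours show the scaled CPM, on which these counts can differ.

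Per kilobase of transcript and averaged over the 9 groups, levels were led by potassium leak pores and by auxiliary subunits. Kcnk16, an islet leak channel of the two-pore-domain class also called TALK-1, had the highest level, at a mean over the 9 groups of 30.6 CPM per kilobase. Kcnip1, a calcium-sensing subunit of A-type channels, followed at 25.7 CPM per kilobase, and Kcnk1, another leak pore (TWIK-1), at 20.2. Kcnmb2, the inactivating β subunit of the large-conductance calcium-activated channel, stood at 14.8, whereas Kcnma1, the pore it binds, stood at 5.05 CPM per kilobase. Cacnb3, a cytoplasmic calcium channel subunit, reached 9.83, above every calcium pore, of which Cacna1d, an L-type pore, was highest at 2.85 CPM per kilobase. Kcnh6 and Kcnh2, ether-à-go-go-related repolarising pores, stood at 7.27 and 4.10. Scn9a was the sodium pore of highest level at 2.96 CPM per kilobase. These ranks are of means over the 9 groups and need not hold in each group. Before division by length, Kcnk16 averaged 88.7 CPM in E18.5 and 10.9 in Adult, whereas Kcnip1 averaged 30.1 and 55.1.

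Members differed widely in how evenly the 21 ICR adults held them. Among the 30 members of at least 5 CPM in Adult, the coefficient of variation was lowest for Cacnb3 (16.4%), Kcnip1 (18.7%) and Kcnu1, a pore best known from sperm (18.8%). It was highest for Kcnk16 (98.1%), the silent subunit Kcnf1 (91.0%), the delayed rectifier Kcnq1 (82.3%) and the ether-à-go-go pore Kcnh1 (70.2%). Kcnk16 ranged from 1.32 to 47.1 CPM between adults with a median of 8.80, while Kcnip1 stayed between 40.9 and 77.3 CPM.

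The sequence before the annotated start is shown for 4 members with changes described below, chosen after their values were seen. Kcnk16 fell from E18.5 to Adult, and Kcnf1 rose after P10 and was low in both diabetic models. Kcnj12 fell in both diabetic models, and Kcnk1 rose in the diabetic ob/ob animals. Each sequence is the 250 bases before the start that RefSeq gives (GRCm38.p6, the assembly also called mm10), printed 5′ to 3′ on the gene's strand. None of the 4 windows holds an annotated exon. The Kcnk1 and Kcnj12 windows lie inside the genes' longer annotated spans, and the Kcnf1 and Kcnk16 windows directly precede the genes. Capitals mark matches, on either strand, to TGCTGAC, the core site of Maf factors, or to CATCTG, an E-box of the kind NeuroD1 binds. The palindromic E-box CACGTG and the GC box GGGCGG were also searched on both strands and are not among these letters.
Kcnk16, chr14:20269270-20269519, minus strand: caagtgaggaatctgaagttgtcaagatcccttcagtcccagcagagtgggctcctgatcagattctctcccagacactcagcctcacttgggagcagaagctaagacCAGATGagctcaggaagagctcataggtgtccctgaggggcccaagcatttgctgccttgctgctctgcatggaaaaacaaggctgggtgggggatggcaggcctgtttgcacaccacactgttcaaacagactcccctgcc
Kcnf1, chr12:17176889-17177138, minus strand: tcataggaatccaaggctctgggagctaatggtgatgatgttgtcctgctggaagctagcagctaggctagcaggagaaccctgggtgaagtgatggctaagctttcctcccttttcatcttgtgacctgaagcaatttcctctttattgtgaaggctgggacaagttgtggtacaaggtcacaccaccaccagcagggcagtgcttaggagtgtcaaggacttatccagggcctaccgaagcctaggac
Kcnj12, chr11:61065554-61065803, plus strand: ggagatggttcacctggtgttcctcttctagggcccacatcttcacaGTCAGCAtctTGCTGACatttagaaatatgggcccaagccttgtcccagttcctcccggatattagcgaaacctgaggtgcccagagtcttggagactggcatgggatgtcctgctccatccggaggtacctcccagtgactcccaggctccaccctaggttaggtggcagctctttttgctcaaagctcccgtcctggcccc
Kcnk1, chr8:125994852-125995101, plus strand: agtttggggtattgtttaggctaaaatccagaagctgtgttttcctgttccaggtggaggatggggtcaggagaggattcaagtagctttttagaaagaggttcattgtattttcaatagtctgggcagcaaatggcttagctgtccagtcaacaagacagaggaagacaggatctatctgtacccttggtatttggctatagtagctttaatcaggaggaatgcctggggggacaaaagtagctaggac
The Kcnj12 window held 2 Maf core sites on opposite strands and close together, the Kcnk16 window 1 E-box, and the Kcnf1 and Kcnk1 windows no match. Among 32851 RefSeq promoter windows of the same length, 3.81% held TGCTGAC, 14.4% CATCTG, 6.02% CACGTG and 32.7% GGGCGG. A match describes these letters and is not a bound site. The windows' GC content was 54.8% (Kcnk16), 51.2% (Kcnf1), 56.0% (Kcnj12) and 44.4% (Kcnk1). A window was found for 63 of the 90 members.

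Between E18.5 and adulthood, potassium channel genes differed in both directions. The inward rectifier Kcnj5, the ether-à-go-go pores Kcnh1 and Kcnh5 and the Kv β subunit Kcnab3 rose, while the leak pores Kcnk16, Kcnk9 and Kcnk3 and the delayed rectifier Kcnb2 fell. Of the 89 members tested, 19 rose and 15 fell in Adult against E18.5, where 34.8% of all genes were called and 38.2% of members. The members' median fold was 0.22, beside 0.0133 for all genes. By role, called members were 5 higher and 3 lower of 24 voltage-gated potassium pores, 1 higher and 4 lower of 10 two-pore-domain pores, 5 higher and 2 lower of 13 potassium auxiliary subunits, and 1 higher and 0 lower of 5 sodium pores. Acinar markers differed too, with 17 of 19 higher in Adult, at 0.0534 to 0.275% of counts in E18.5 and 0.0251 to 28.2% in Adult, and their part in these changes was not tested beyond the fits listed in the closing section.

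Leak channels of the two-pore-domain class contribute to the resting membrane potential. Kcnk16 fell most among called members whose higher group held 10 CPM or more. It stood at 100, 98.0, 112 and 44.6 CPM in the E18.5 libraries and at 1.32 (lowest), 8.80 (median) and 47.1 CPM (highest) in Adult. The groups overlapped in 1 adult value above the lowest fetal library. The mean went from 88.7 ± 30.02 to 10.9 ± 10.7 CPM, a ratio of means of 0.123. The fitted log2 fold, with the extraction term, was larger in size at -4.17 ± 0.48 (adjusted p = 5.83e-10). Kcnk9, an acid-sensitive leak pore, stood at 2.58, 5.37, 2.59 and 10.0 CPM in E18.5 and at no more than 0.662 CPM in any adult, with a median of 0 (log2 fold -5.25 ± 0.93, adjusted p = 9.63e-06). Kcnk3, a second acid-sensitive leak pore, went from 6.09 to 1.35 CPM (log2 fold -2.32 ± 0.62, adjusted p = 0.00242). Among the leak pores only Kcnk13 rose, from 0.0898 to 1.04 CPM.

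The inward rectifier Kcnj5, a pore opened by G-protein βγ subunits, rose with age. It stood at 2.54, 1.66, 4.88 and 1.27 CPM in E18.5, at 8.03, 2.74 and 1.68 in P1, at 2.83, 0.345 and 14.2 in P7, and at 22.9, 26.6, 3.54, 25.2 and 20.4 in P10. Adults held 17.3 (lowest), 28.9 (median) and 76.3 CPM (highest). All 21 adults lay above all fetal and newborn libraries up to P7, and 1 P10 library stayed at the earlier level. The log2 fold in Adult against E18.5 was 3.44 ± 0.69 (adjusted p = 7.76e-05).

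Of 24 voltage-gated potassium pores, 4 rose and 2 fell between P10 and Adult, where 18.8% of all genes were called. Their median fold was 0.456. Kcnh5, an ether-à-go-go pore, held 0 to 0.652 CPM in E18.5, 0.0218 to 1.59 CPM in P10 and 1.55 (lowest), 5.91 (median) and 19.5 CPM (highest) in Adult. No adult overlapped E18.5, and only the highest P10 library reached the adult range. By mean it rose from 0.239 CPM in E18.5 and 0.5259 CPM in P10 to 6.83 CPM in Adult (log2 folds 5.17 ± 1.10 and 3.67 ± 0.88, adjusted p = 0.000172 and 0.00151). Kcnh1 rose from 3.47 and 4.11 CPM to 16.2 CPM (log2 folds 1.81 ± 0.49 and 1.78 ± 0.43, adjusted p = 0.00263 and 0.00179). The opposite held for Kcnb2, a delayed rectifier, which went from 6.45 and 5.47 CPM to 1.92 CPM (log2 folds -1.98 ± 0.45 and -1.65 ± 0.40, adjusted p = 0.000438 and 0.00161).

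**Figure D2:**
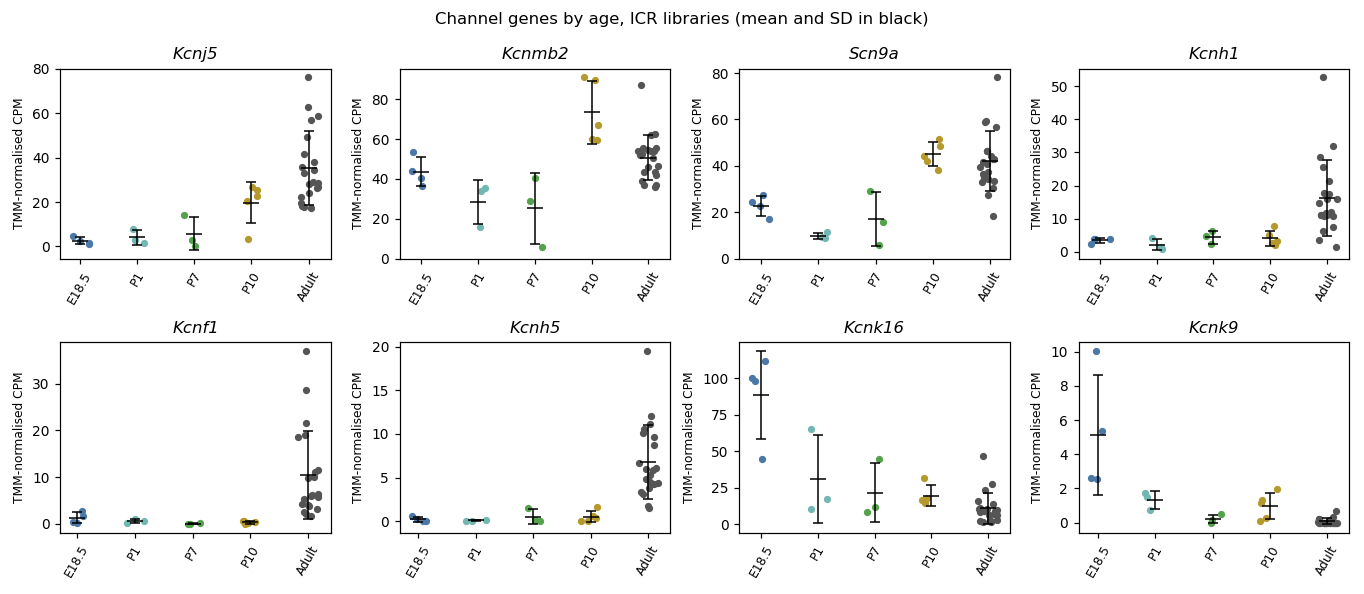
CPM of 8 channel genes (panels, linear axis from 0) in E18.5, P1, P7, P10 and Adult libraries, with each point a library and the bar the mean ± SD. Kcnmb2 is at 59.5 to 91.1 CPM and Kcnj5 at 20.4 to 26.6 CPM in all but 1 library at P10, whereas Kcnh5 and Kcnf1 stay low at P10 and are high in adults.

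Of 7 calcium pores 2 were called higher and 1 lower in Adult against E18.5, where 34.8% of all genes were called. Their median fold was 0.553. Cacna1f, an L-type pore best known from the retina, was near 0 in E18.5, where 3 libraries were at 0 and 1 at 0.0182 CPM. Adults held 0.341 (lowest), 1.55 (median) and 3.33 CPM (highest), with no overlap (adjusted p = 3.03e-06). This gene was chosen after its values were seen. Cacna1d, an L-type pore that admits calcium in β cells, stood at 9.58, 18.3, 20.1 and 26.4 CPM in E18.5 and at 20.5 to 62.7 CPM in Adult, with overlapping groups (log2 fold 0.99 ± 0.30, adjusted p = 0.00677). Its exons overlap those of Chdh, and the libraries keep no strand, so reads of these genes may be mixed. Another L-type pore, Cacna1c, averaged 3.01 CPM in E18.5 and 4.42 in Adult and was not called. Cacna1h, a T-type pore open at low voltage, fell from 3.86 to 0.398 CPM (log2 fold -3.42 ± 0.90, adjusted p = 0.00197), and its fetal libraries at 1.99, 5.33, 4.28 and 3.82 CPM all lay above the highest adult at 1.02 CPM. Scn9a, the sodium pore of highest level per kilobase, rose from 22.8 to 42.1 CPM (log2 fold 0.92 ± 0.26, adjusted p = 0.00400).

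Among auxiliary subunits, Kcnip1 rose from 28.2 to 32.2 CPM in E18.5 to 40.9 to 77.3 CPM in Adult without overlap (log2 fold 0.76 ± 0.26, adjusted p = 0.0167). Kcnab3, whose product binds Kv pores from the cytoplasm, rose from 3.92 ± 1.52 to 11.2 ± 2.55 CPM (log2 fold 1.52 ± 0.33, adjusted p = 0.000176), and Kcnip3, a KChIP like Kcnip1, from 3.03 to 5.94 CPM. Kcnmb4, a β subunit of calcium-activated channels known from neurons, was near 0 in adults, at 0.0172 CPM, and at 2.36 CPM in E18.5. This gene was chosen after its values were seen.

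Pathway genes that are no members moved in the same comparison, Adult against E18.5, where 34.8% of all genes were called. Of 37 other ion channels and calcium handling genes, 5 rose and 3 fell, led by the type 3 inositol trisphosphate receptor Itpr3 (log2 fold -1.87 ± 0.22), the sodium leak channel Nalcn (2.88 ± 0.38) and the calcium store sensor Stim1 (1.35 ± 0.24). Of 26 genes of glucose entry and exocytosis, 7 rose and 4 fell, led by the synaptotagmin Syt4 (3.64 ± 0.32), the SNARE gene Snap25 (1.65 ± 0.23) and Stx1a (-1.47 ± 0.21).

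Around birth, channel genes differed in both directions, and stromal markers differed between the same groups. In P1 against E18.5, 8 members rose and 3 fell (12.4% of 89, beside 12% of all genes), with a median fold of 0.0145 beside 0.0405. In P7 against P1 no member was called by edgeR, with 3 at an unadjusted p under 0.05 (DESeq2 called 0, with 6 at an unadjusted p under 0.05), where 0.106% of all genes were called. In P10 against P7, 9 members rose and 16 fell (28.1%, beside 29.4% of all genes), with a median fold of -0.29 beside -0.0371. Stromal markers took 0.0268 to 0.0603% of counts in E18.5, 0.103 to 3.07% in P1, 0.0546 to 3.04% in P7 and 0.00413 to 0.0454% in P10. Acinar markers differed too, at 0.0534 to 0.275% in E18.5, 0.0705 to 1.05% in P1, 1.15 to 16.8% in P7 and 0.0452 to 0.61% in P10. All 14 listed stromal markers were above 0 in every group, 13 of 14 rose in P1, and 14 of 14 fell in P10. β cell markers moved the other way, with 6 of 12 lower in P1 and 11 of 12 higher in P10. Without the 4 libraries above 1% stroma, which leaves 1 library each in P1 and P7 that is assumed to vary like the other groups, edgeR called 0 members in both P1 against E18.5 and P10 against P7 (9 and 4 at an unadjusted p under 0.05). In those fits few genes of any kind were called, 0.157% and 0.0423% of all tested.

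Several members were high in just those libraries. Kcnj8, an inward rectifier pore of vascular mural cells, stood at 4.10, 44.8 and 58.9 CPM in P1 libraries 1 to 3 and at 30.5, 48.01 and 3.69 CPM in P7 libraries 1 to 3, against 0.0953 to 1.45 CPM in E18.5 and 0.0237 to 0.538 in P10. The 4 high values are the 4 stromal libraries. Abcc9, the regulatory subunit that Kcnj8 joins, moved in the same directions (log2 folds 4.99 ± 1.00 and -6.36 ± 0.97). Kcne4, a membrane-spanning auxiliary subunit, stood at 0.548, 8.05 and 11.7 CPM in P1 and 13.3, 15.2 and 0.149 in P7. Kcnk3 stood at 6.64, 13.1 and 17.6 in P1 and at 31.9, 15.1 and 7.17 CPM in P7. Without the stromal libraries, the log2 fold in P10 against P7 went from -7.15 to -4.47 for Kcnj8, from -6.28 to 0.08 for Kcne4 and from -3.02 to -1.44 for Kcnk3. Also called lower in P10 were Kcnk6, a leak pore (5.58 to 0.716 CPM), and Kcnn4, the intermediate-conductance calcium-activated pore (6.004 to 0.523 CPM). The log2 fold of Kcnn4 was -3.40 with all libraries and -3.38 (adjusted p = 0.804) without the stromal ones.

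**Figure D3:**
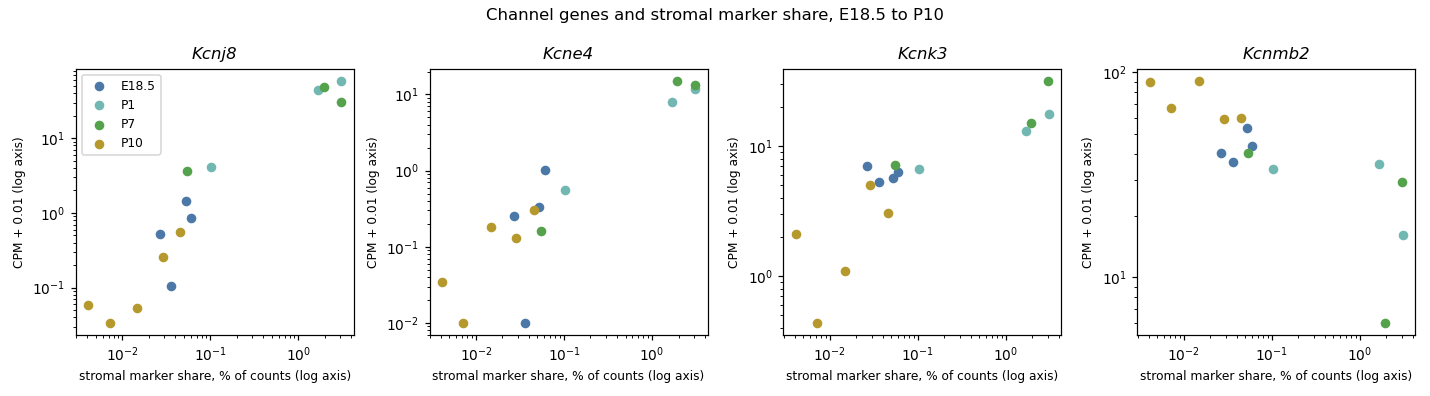
CPM of Kcnj8, Kcne4, Kcnk3 and Kcnmb2 (vertical, log axis) against the share of counts on stromal markers in percent (horizontal, log axis) in the 15 libraries from E18.5 to P10. Kcnj8 reaches 30.5 to 58.9 CPM only in the 4 libraries above 1% stroma, where Kcnmb2 lies between 5.98 and 35.7 CPM.

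Several members of high level in β cells rose from P7 to P10, in the direction of the β cell markers, while Kcnk16, Kcnk1 and Kcnh6 were not called. Kcnip1 was called higher at a log2 fold of 0.87 ± 0.32, and its fold without the stromal libraries was -0.19. Kcnmb2 stood at 29.1, 5.98 and 40.5 CPM in P7 and at 60.0, 59.5, 91.1, 67.1 and 89.8 in P10, with no overlap (log2 fold 1.47 ± 0.34, adjusted p = 0.00109). Scn9a stood at 15.96, 6.03 and 29.1 CPM in P7 and at 38.3 to 51.4 in P10, also with no overlap (log2 fold 1.38 ± 0.33, adjusted p = 0.00156). The single P7 library below 1% stroma was the highest of its group for both genes, and without the other P7 libraries the folds were 0.63 and 0.55. That library, P7 3, had the highest acinar share of its group, 16.8% of counts. The part of acinar share in these folds was not tested beyond the fits listed in the closing section. Kcnma1, Kcnu1, Kcnab3, Cacnb2, Kcnh3 and Kcnj5 were called higher as well, with log2 folds of 0.91, 1.23, 1.10, 1.12, 1.504 and 1.97. Without the stromal libraries these folds were -0.0572, 0.51, 0.57, 0.60, 1.08 and 0.64, none called. Among genes of glucose entry and exocytosis, 17 of 26 rose and none fell in P10 against P7 with all libraries. In that fit 29.4% of all genes were called. The rises were led by Rab3a (log2 fold 1.23 ± 0.23), Syt4 (1.82 ± 0.35) and Snap25 (1.15 ± 0.27). Folds of these genes without the stromal libraries are not given here. In P1 against E18.5 the reverse was seen for Scn9a (22.8 to 9.81 CPM, log2 fold -1.21 ± 0.34, adjusted p = 0.0133) and Kcnma1 (30.6 to 13.1 CPM, -1.22 ± 0.32, adjusted p = 0.00919), with no overlap for either. The P1 library with 0.103% stroma still held 9.22 CPM of Scn9a and 15.6 CPM of Kcnma1, below every fetal library, and the folds without the other P1 libraries were -1.24 and -0.93, neither called.

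After P10, where stroma was low on both sides, 10 members rose and 8 fell in Adult (20.2% of 89, beside 18.8% of all genes, median fold 0.0803 beside 0.0375). Kcnf1, a silent subunit thought to join other Kv pores, showed the steepest rise among members of at least 5 CPM. Its P10 libraries held 0 to 0.612 CPM, and adults held 1.62 (lowest), 6.19 (median) and 37.0 CPM (highest), so the groups did not overlap (log2 fold 4.88 ± 0.93, adjusted p = 7.76e-05). Kcnk12, a silent relative of the leak pores, rose from 3.13 to 8.72 CPM with no overlap (log2 fold 1.38 ± 0.27, adjusted p = 9.02e-05). Cacnb3 fell from 33.3 to 24.1 CPM (log2 fold -0.54 ± 0.16, adjusted p = 0.0119), and Kcnk16 fell further, from 19.7 to 10.9 CPM. Acinar markers were higher in Adult for 17 of 19, at a median share of 7.82% beside 0.310% in P10.

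Non-diabetic NOD-ICR animals held less Kcnj5 than any ICR adult. Of 89 members, 6 rose and 4 fell (11.2%, beside 13.9% of all genes, median fold -0.129 beside -0.0131). Kcnj5 stood at 3.48 (lowest), 6.90 (median) and 9.41 CPM (highest) in T1ND, below the lowest of the 21 ICR adults at 17.3 CPM, and the log2 fold was -2.56 ± 0.49 (adjusted p = 9.74e-05). Its 4 T1D values, 0.299, 3.95, 4.10 and 2.37 CPM, were also below every ICR adult. T2H ranged from 0.649 to 30.3 CPM with a mean of 15.3 CPM, beside 35.5 CPM in Adult (log2 fold -0.77 ± 0.46, adjusted p = 0.315), and T2D ranged from 13.3 to 35.4 CPM. Strain background and diabetes risk cannot be told apart in T1ND against Adult.

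Other calls in T1ND concerned a leak pore, calcium pores and genes high in immune-rich libraries. Kcnk1 stood at 39.2 to 82.4 CPM in T1ND and 10.6 (lowest), 27.2 (median) and 51.8 CPM (highest) in Adult, with overlap (log2 fold 0.87 ± 0.20, adjusted p = 0.00101). The P/Q-type calcium pore Cacna1a (31.0 to 17.2 CPM, log2 fold -0.84 ± 0.25, adjusted p = 0.0129) and Kcnab3 (11.2 to 7.04 CPM, -0.67 ± 0.23, adjusted p = 0.0448) fell. Cacna1h was higher without overlap, at 1.41 to 2.02 CPM against 0 to 1.02 (log2 fold 2.05 ± 0.70, adjusted p = 0.0397). Its exons overlap those of Tpsg1, a tryptase gene. Myeloid markers, 13 of 14 of them in the table and none at 0, took 0.00302 to 0.0370% of counts in Adult, 0.0137 to 0.345% in T1ND and 0.141 to 0.734% in T1D, and 12 of 13 rose in T1ND. Lymphoid markers rose for 7 of 12.

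A pair of potassium pores chosen after their values were seen, the sodium-activated Kcnt2 and the glial inward rectifier Kcnj10, followed those libraries. Kcnt2 stood at 0.0343, 0.0795 and 0 CPM in T1ND libraries 1 to 3 and at 0.778, 3.89, 0.876 and 2.39 in libraries 4 to 7, which are the 4 T1ND libraries above 0.1% myeloid share. It reached 9.83, 5.41, 13.8 and 4.07 CPM in T1D, at most 0.0442 in Adult, and was at 0 in all T2H and T2D libraries. Kcnj10 stood at 0.0343, 0.344 and 0.353 CPM in T1ND libraries 1 to 3, at 2.71, 1.40, 4.34 and 7.82 in libraries 4 to 7, and at 3.96, 2.98, 2.10 and 4.38 in T1D. Duct markers divided the T1ND libraries alike, at 0.0509 to 0.110% of counts in libraries 1 to 3 and 0.136 to 0.373% in libraries 4 to 7. In T1D they took 0.291 to 0.559%. Which cells hold the 2 genes was not tested. Without those 4 T1ND libraries, an alternative chosen after seeing the data, edgeR called 0 members in T1ND against Adult (9 at an unadjusted p under 0.05), and Kcnj5 had a log2 fold of -2.61 with adjusted p = 0.0612. In that fit 1.5% of all genes were called. With terms for acinar, stromal and myeloid share in the fit, Kcnj5 alone was called (log2 fold -2.37, adjusted p = 0.0353), beside 1.75% of all genes.

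Diabetic against non-diabetic NOD-ICR animals gave 2 called members, both lower (2.25% of 89, beside 1.28% of all genes, median fold -0.133 beside -0.0141). Kcnj12, a strong inward rectifier that holds the membrane near the potassium potential, stood at 14.2, 16.6, 8.58, 7.54, 0, 4.34 and 6.04 CPM in T1ND and at 0.697, 0.528, 0.831 and 0.224 in T1D. A single T1ND library at 0, T1ND 5, overlapped the diabetic values, and the other 6 lay above them. The animal of T1ND 5 had the highest glucose (245 mg/dl) and age (212 days) in T1ND. The log2 fold was -3.77 ± 0.81 (adjusted p = 0.0131), and the call was lost without T1D library 2 or 4. Kcnmb2 stood at 19.6 (lowest), 34.1 (median) and 59.7 CPM (highest) in T1ND and at 15.8, 19.9, 12.6 and 20.6 in T1D, overlapping at 1 T1ND library (log2 fold -1.21 ± 0.29, adjusted p = 0.0200). That call was lost in 6 of 11 fits that left out 1 library, with log2 folds of -1.34 to -1.07. In the Qiagen libraries alone, and with terms for marker shares, edgeR called 0 members (12 and 8 at an unadjusted p under 0.05), with Kcnj12 at -3.96 and -3.01. Of all genes, 0% and 0.0124% were called in those fits.

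Of the 89 members, 3 separated the NOD-ICR groups without overlap, beside 1.45% of all tested genes, and none of the 3 was called. They were Kcnt2, higher in T1D (log2 fold 2.77 ± 1.03, adjusted p = 0.155), Cacna1h, with a lower level in T1D (0.403 beside 1.71 CPM, adjusted p = 0.416), and Kcnf1. Kcnf1 stood at 0.348, 1.18, 1.07 and 0.760 CPM in T1D and at 1.85 to 13.4 in T1ND, with no overlap (log2 fold -3.19 ± 0.97, adjusted p = 0.0767). Groups overlapped for the next genes. Kcnh2 had a log2 fold of -0.80 ± 0.23 (adjusted p = 0.0589). Kcnk1 stood at 73.9, 71.5, 92.9 and 73.8 CPM in T1D, within the range of T1ND for all but 1 library (log2 fold 0.63 ± 0.29, adjusted p = 0.263). Of the pathway genes, 1 of 37 other channel genes fell, Trpm5, a calcium-activated cation channel (log2 fold -1.61 ± 0.36), and 2 of 26 genes of glucose entry and exocytosis, Rph3al and Pcx. Of all genes, 1.28% were called in T1D against T1ND.

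The non-diabetic BTBR Ob/+ animals held more Kcnk1 and less Kcnh2 than ICR adults. In T2H against Adult, 2 members rose and 3 fell (5.62%, beside 5.2% of all genes, median fold -0.0407 beside 0.000596), and no member separated the groups, beside 0.0186% of all genes. Kcnk1 was higher (22.8 to 69.9 CPM, log2 fold 0.83 ± 0.21, adjusted p = 0.0121). Kcnh2, the ether-à-go-go-related pore, was lower, at 8.75 to 16.5 CPM against 14.97 (lowest), 23.5 (median) and 33.6 CPM (highest) in Adult (log2 fold -0.64 ± 0.16, adjusted p = 0.0138). The N-type calcium pore Cacna1b, chosen after its values were seen, went from 4.79 to 2.18 CPM. With terms for sex and age, 0 of these calls were kept by edgeR (9 members at an unadjusted p under 0.05), beside 0.786% of all genes called, and Kcnk1 had a log2 fold of 0.83 with adjusted p = 0.0915. Only 1 T2H library but 17 adults were extracted with a Qiagen column, so extraction and group are nearly aligned.

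Diabetic ob/ob animals showed a sodium pore, a leak pore and a repolarising pore raised, and an inward rectifier near 0. Ob genotype and diabetes cannot be told apart in T2D against T2H, where strain labels also differ in part. Ages differed too, at 58 to 78 days in T2D and 53 to 179 days in T2H. The part of age was not tested beyond the fit with terms for sex and age. In T2D against T2H, 7 members rose and 7 fell (15.7% of 89, beside 18.3% of all genes, median fold 0.189 beside 0.0136), and 5 separated the groups without overlap, beside 2.26% of all genes. Voltage-gated potassium pores gave 1 rise and 4 falls of 24, silent subunits 2 and 1 of 5, potassium auxiliary subunits 2 rises of 13, and sodium pores, leak pores, inward rectifiers and calcium auxiliary subunits 1 call each.

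Scn3a, a sodium pore that opens at the start of the action potential, showed the highest rise among members of at least 5 CPM. It stood at 0.875 to 8.35 CPM in the 9 T2H libraries and at 17.3 to 34.4 CPM in the 7 T2D libraries, with no overlap. The mean went from 3.54 ± 2.82 to 24.98 ± 5.98 CPM (log2 fold 2.75 ± 0.50, adjusted p = 4.92e-05). No other group reached the T2D range, since the highest ICR adult held 7.40 CPM and T1D averaged 2.22 CPM. By mean, Scn9a stood at 26.1 CPM in T2D and 38.7 in T2H and was not called (log2 fold -0.54 ± 0.22, adjusted p = 0.0778).

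Kcnk1 rose from a level that was already among the highest per kilobase. Its T2D libraries held 152, 90.2, 82.9, 109, 90.4, 82.4 and 88.4 CPM, all above the highest T2H library at 69.9 CPM, with means of 43.9 ± 17.3 and 99.3 ± 24.8 CPM (log2 fold 1.12 ± 0.24, adjusted p = 0.000387). Kcnh6, which repolarises the membrane after each action potential, stood at 34.5 to 59.7 CPM in 6 T2D libraries and at 21.4 in T2D 7, against 10.7 to 40.3 in T2H, where T2H 9 was highest (log2 fold 1.17 ± 0.28, adjusted p = 0.00183). T2H 9 was the only T2H library extracted with a Qiagen column. The animal of T2H 9 also had the highest glucose (271 mg/dl) and age (179 days) in T2H, and these cannot be told apart from extraction. Within TRIzol libraries the log2 folds were 1.39 for Kcnk1 and 1.51 for Kcnh6 (adjusted p = 0.000107 and 9.69e-05). Within Qiagen libraries, where T2H has that 1 library, they were 0.34 and -0.12 (adjusted p = 0.89 and 0.995), and edgeR called 0 members (13 at an unadjusted p under 0.05) and 0.152% of all genes. Kcnab3 stood at 18.2 to 57.2 CPM in T2D and 7.62 to 20.5 in T2H, overlapping in 1 T2D library (log2 fold 1.37 ± 0.26, adjusted p = 9.12e-05). The annotation places the noncoding Kcnab3os over Kcnab3 and Gm45875 over Kcnk1, whose reads cannot be told apart without strand.

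Kcnj12 was the member that fell most. The T2D libraries held 0, 0, 0.0330, 0.0248, 0.0856, 0.0532 and 0.313 CPM, and the T2H libraries 1.42 (lowest) to 7.93 (highest), with no overlap and means of 0.0728 and 4.83 CPM (log2 fold -6.35 ± 0.78, adjusted p = 2.35e-08). It lay under the 5 CPM asked of named genes in T2H and was chosen after its values were seen. ICR adults held 1.48 (lowest), 14.4 (median) and 30.7 CPM (highest). Kcnf1 stood at 0.947, 4.60, 0.660, 0, 0.385, 0.399 and 1.88 CPM in T2D and 3.92 to 34.1 in T2H, overlapping through T2D 2 (log2 fold -3.76 ± 0.81, adjusted p = 0.000537). Kcnd1, an A-type pore, fell from 5.64 to 2.13 CPM (log2 fold -1.38 ± 0.28, adjusted p = 0.000303), and Cacnb4, a calcium channel β subunit, from 4.61 to 2.02 CPM (log2 fold -1.24 ± 0.32, adjusted p = 0.00379).

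**Figure D4:**
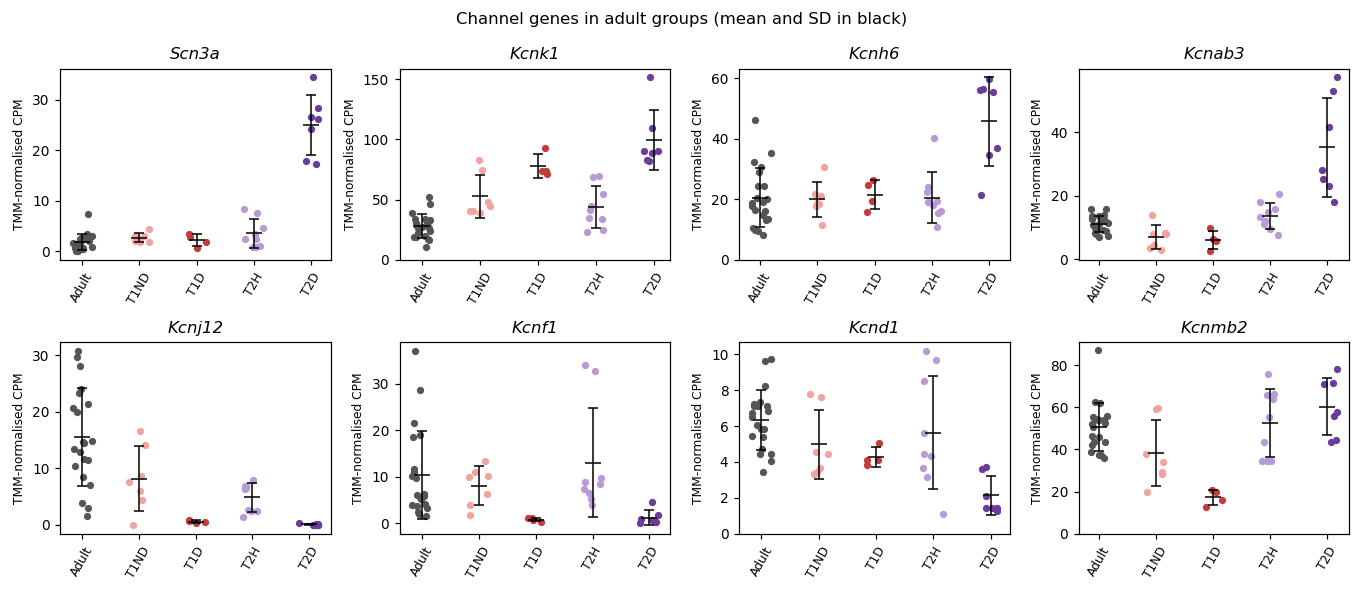
CPM of 8 channel genes (panels, linear axis from 0) in Adult, T1ND, T1D, T2H and T2D libraries, with each point a library and the bar the mean ± SD. Scn3a is at 17.3 to 34.4 CPM in T2D only, Kcnk1 is highest in T2D, and Kcnj12 and Kcnf1 are low in both T1D and T2D.

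Silent subunits moved both ways in T2D. Besides the fall of Kcnf1, Kcns3 and Kcng4, both chosen after their values were seen, were higher. Kcns3 stood at 1.53 to 9.06 CPM in T2D and 0 to 2.19 in T2H, where 5 of 9 libraries were at 0 (adjusted p = 0.0444, lost in 12 of 16 fits without 1 library). Kcng4 stood at 0.42204 to 5.22 CPM in T2D, and at 0 in 7 of 9 T2H libraries with a highest value of 0.154. In contrast, the calls of Scn3a, Kcnk1, Kcnh6, Kcnab3, Kcnj12, Kcnf1, Kcnd1 and Cacnb4 were kept in all 16 of these fits.

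β cell markers fell alongside in T2D, 10 of 12, and myeloid markers rose for 6 of 13, at 0.0252 to 0.230% of counts beside 0.00501 to 0.0983% in T2H. With terms for acinar, stromal and myeloid share, 7 members were called (5.92% of all genes), 6 of them among the 14, including Scn3a (log2 fold 2.79), Kcnab3 (1.59), Kcnj12 (-5.54), Kcnd1 (-1.21) and Kcnf1 (-3.09), while Kcnk1 (0.77) and Kcnh6 (0.80) had adjusted p = 0.0669 and 0.178. In the fit without these terms, 18.3% of all genes were called in T2D against T2H. There, of 37 other channel and calcium handling genes, 6 rose and 5 fell. They were led by Trpm5 (log2 fold -3.24 ± 0.31), the ryanodine receptor Ryr2 (6.22 ± 1.35) and the inositol trisphosphate receptor Itpr1 (-1.66 ± 0.38). Of 26 genes of glucose entry and exocytosis, 2 rose and 8 fell, led by the glucose transporter Slc2a2 (-2.20 ± 0.27), the zinc transporter Slc30a8 (-1.45 ± 0.23) and pyruvate carboxylase Pcx (-1.62 ± 0.30).

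The contrast of diabetic with non-diabetic animals differed between the models for 3 members. The test of the difference, (T2D minus T2H) minus (T1D minus T1ND), called 2 members higher and 1 lower (3.37%, beside 2.14% of all genes, median 0.315 beside 0.0393). Kcnmb2 fell in T1D but had a log2 fold of 0.28 ± 0.22 in T2D, where libraries held 43.5 to 78.1 CPM beside 34.3 to 75.9 in T2H, and the difference was 1.49 ± 0.36 (adjusted p = 0.0130). Kcnab3 had log2 folds of -0.20 and 1.37, a difference of 1.56 ± 0.43 (adjusted p = 0.0334). For Scn3a, at log2 folds of -0.09 and 2.75, the difference of 2.84 ± 0.84 missed the threshold (adjusted p = 0.0547). Kcnk1 had a difference of 0.49 ± 0.38, Kcnj12 of -2.58 ± 1.05 and Kcnf1 of -0.56 ± 1.14, none called (adjusted p = 0.583, 0.213 and 0.871). Libraries left out singly ended the call of Kcnmb2 without T1D 3 and of Kcnab3 in 7 of 27 fits.

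**Figure D5:**
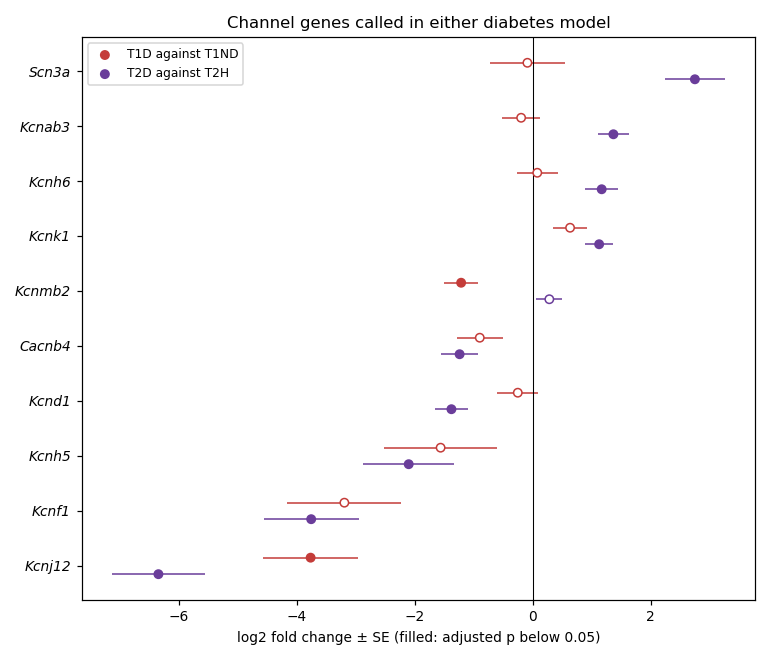
Log2 fold change ± SE of 10 channel genes in T1D against T1ND and in T2D against T2H, with filled markers for called genes. Kcnj12 is called lower in both models, Kcnmb2 in T1D alone, and the remaining filled markers belong to T2D.

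None of 7 calcium pores was called between diabetic and non-diabetic animals in either model, where 1.28% and 18.3% of all genes were called. Cacna1d was highest in Adult at 40.1 ± 13.7 CPM, followed by T1ND (29.3 ± 10.5), T2H (29.04 ± 8.83), T2D (26.1 ± 9.44) and T1D (20.05 ± 4.78), and it was called in no comparison among adult groups. Its neighbours in that order overlapped within their SD. Kcnma1 had log2 folds of 0.04 ± 0.26 in T1D and -0.08 ± 0.21 in T2D and was called in neither, while its subunit Kcnmb2 fell in T1D. Kcnip1 averaged 64.4 CPM in T2D, its highest group.

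Over the 10 comparisons, 65 of the 89 tested members were called at least once and 24 in none, beside 68.2% of all tested genes called at least once. Kcnab3 was called in 5, more than any other member. Among those called in none, the α2δ subunit Cacna2d1, which carries calcium pores to the membrane, stood between a mean of 14.2 CPM in P1 and 33.9 CPM in T2D, with 6.30 to 35.1 CPM among ICR adults. Kcnq1 had its highest mean in E18.5 (12.5 ± 2.54 CPM) and its lowest in T1D (3.23 ± 2.50 CPM). It varied widely within groups, from 0 to 16.6 CPM in T2D and from 0.0617 to 21.8 CPM in T2H. The sodium β subunit Scn3b, the silent subunit Kcng3 and the Kv β subunit Kcnab1 were also called in none, with highest means of 3.62 CPM in T2H, 1.71 CPM in P10 and 4.25 CPM in P7.

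Among the other members that the naming rule lists, 3 of low level were called during maturation. Kcnip4, a KChIP, was higher in Adult (2.16 CPM) than in E18.5 (0.665 CPM, log2 fold 1.78 ± 0.61, adjusted p = 0.0178) and P10 (0.521 CPM, log2 fold 2.18 ± 0.57, adjusted p = 0.00394), with overlapping groups. Kcnn3, a small-conductance calcium-activated pore, rose from 1.49 CPM in P10 to 4.16 CPM in Adult (log2 fold 1.28 ± 0.45, adjusted p = 0.0369). Kcnj6, which can pair with Kcnj5, was called higher in Adult than in E18.5 at a level of 0.748 beside 0.247 CPM (adjusted p = 0.0488). None of these 3 was called in a comparison of diabetic with non-diabetic animals.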

How the data were processed

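The authors deposited expected counts per gene. The submitters' processing notes name bcl2fastq 2.20.0.422, Bowtie 1.2.2, RSEM 1.3.0 and the mm10 build. The annotation is not given in the sources used here. The β cells were sorted by mCherry from islets purified on Histopaque, per the labels' protocols. Their RNA was extracted with TRIzol or a Qiagen column and made into SMART-Seq v4 and Nextera XT libraries, which keep no strand. A second deposited table holds normalized signal, which is the authors' expected counts divided by 1 factor per library. It was not used for any value.

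Of the expected counts, 48.5% were not whole, and they were rounded. edgeR 4.0.16 in R 4.3.3 kept genes with filterByExpr, scaled with TMM and fitted 9 group means and an extraction term to all 63 libraries (robust quasi-likelihood, two-sided). Errors of folds come from the F statistic. Simulated counts with known folds were used to test the fit. Symbols and positions are those of RefSeq GRCm38.p6, and lengths those of the GENCODE M21 principal transcript. No 2 libraries were duplicates, as the lowest chi-square per degree of freedom was 29.3. Replicate numbers follow accession order and pair no samples.

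Named genes were 30 anchor genes as far as they are members, per comparison up to 8 rises and 8 falls of called members of at least 5 CPM with all libraries of the smaller group above, or all below, the other group's median, and the 12 highest per kilobase. A few genes chosen this way are not reported here. Other names are said to be chosen after their values were seen. The members and all lists were chosen with earlier results of these data known. Alternatives were DESeq2 1.42.0, RLE factors, no filter, no extraction term, 1 extraction alone, terms for marker shares, terms for sex and age, fits without stromal or double-Cre libraries, only the compared groups, at least 2-fold, members of mean 1 CPM, and each library outside Adult left out. Fits without T1ND libraries above 0.1% myeloid share, or without adult libraries above 20% acinar share, were added after seeing the data.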

Additional observations from a re-analysis of the deposited data

Results flagged for a closer look

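The contrast of diabetic with non-diabetic animals differed between the models, by the interaction test of edgeR's fit, for Kcnab3 (1.56 on the log2 scale) and Kcnmb2 (1.49). Among 54 pairs of a named gene and a group of 4 to 10 libraries, 6 held 1 library far from the others by Dixon's criterion, where chance gives about 1 in 20 groups. Kcnf1 stood at 4.60 CPM in T2D 2, beside a next value of 1.88. Kcnk1 stood at 152 CPM in T2D 1, beside 109. Kcnh6 stood at 40.3 CPM in T2H 9, beside 23.9, and this is the only T2H library extracted with a Qiagen column. The animal of T2H 9 also had the highest glucose and age in T2H. Kcnj5 stood at 3.54 CPM in P10 3, below the next value of 20.4. Kcnk16 stood at 32.0 CPM in P10 2, beside 18.3. Kcnh1 stood at 2.27 CPM in E18.5 4, below 3.81.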

How the results depend on the processing

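The counts of called members moved by over 1.5 times as follows. In Qiagen libraries alone they were 0 in P1 vs E18.5, P10 vs P7, T1D vs T1ND, T2H vs Adult, T2D vs T2H and the difference between models (6, 18, 12, 11, 13 and 14 at an unadjusted p under 0.05 in edgeR), 7 in Adult vs P10 and 11 in Adult vs E18.5. In TRIzol libraries alone they were 8 in P10 vs P7, 6 in Adult vs P10, 16 in Adult vs E18.5 and 1 in T2H vs Adult. With terms for acinar, stromal and myeloid share they were 0 in P1 vs E18.5, P10 vs P7 and T1D vs T1ND (7, 12 and 8 at an unadjusted p under 0.05), 1 in T1ND vs Adult, 3 in T2H vs Adult and 7 in T2D vs T2H. Without the libraries above 1% stroma they were 0 in P1 vs E18.5 and P10 vs P7 (9 and 4). With members of mean 1 CPM over all libraries they were 6 in P1 vs E18.5, 15 in P10 vs P7, 10 in Adult vs P10, 22 in Adult vs E18.5 and 3 in T2H vs Adult, where fewer members are counted. With DESeq2 they were 4 in T1D vs T1ND, 8 in T2H vs Adult and 6 in the difference. With only the compared groups they were 9 in P10 vs P7 and 0 in T1D vs T1ND (14 at an unadjusted p under 0.05). With sex and age they were 0 in T2H vs Adult (9 at an unadjusted p under 0.05) and 5 in the difference, and at 2-fold 3 in T2H vs Adult. Of the alternatives added after seeing the data, leaving out T1ND libraries above 0.1% myeloid gave 0 in T1ND vs Adult (9 at an unadjusted p under 0.05), and leaving out adult libraries above 20% acinar gave 6 there, 0 in T1D vs T1ND (7) and 0 in the difference (10). The cause of these moves was not tested, and smaller fits also have fewer libraries.

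Leaving out 1 library at a time gave 1 to 16 calls in P1 vs E18.5 (1 without P1 3), 0 to 0 in P7 vs P1, 10 to 32 in P10 vs P7 (10 without P7 2), 13 to 15 in Adult vs P10, 22 to 29 in Adult vs E18.5 (22 without E18.5 1), 6 to 15 in T1ND vs Adult (6 without T1ND 6), 0 to 5 in T1D vs T1ND (0 without T1D 2, 5 without T1ND 6), 4 to 6 in T2H vs Adult, 11 to 15 in T2D vs T2H and 0 to 4 in the difference (0 without T1D 3). With all libraries, Adult vs P10 gave 18 calls and Adult vs E18.5 gave 34. Both counts lie above these ranges, so every fit without 1 library gave fewer calls there.

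Directions reversed for 15 log2 folds, none of them called under the alternative that reversed it. In P1 vs E18.5 these were Scn8a (0.42, Qiagen alone) and Kcng4 (-1.34, without stromal libraries). In P10 vs P7 with marker terms they were Kcne4 (3.12), Kcng4 (0.75), Kcnip1 (-0.25) and Kcnk3 (0.0306). Without stromal libraries they were Kcne4 (0.0779), Kcng2 (1.16), Kcng4 (0.93), Kcnip1 (-0.19), Kcnma1 (-0.0572), Kcns3 (0.70) and Kcnt2 (1.08). In T2D vs T2H in Qiagen libraries alone, with 1 T2H library, they were Kcnc1 (1.10) and Kcnh6 (-0.12). Of 122 calls of a member in a comparison, 106 were kept with DESeq2, 115 with RLE factors, 117 with no filter, 113 with no extraction term, 110 at 2-fold and 51 with marker terms, all others being lost or reversed. Where fewer comparisons could be fitted, 25 of 121 were kept in Qiagen and 48 of 107 in TRIzol libraries alone, 75 of 100 with only the compared groups, 23 of 31 with sex and age, 17 of 22 without double-Cre libraries, 70 of 86 without acinar-rich, 0 of 36 without stromal and 0 of 10 without myeloid-rich libraries. No paired analysis was possible because the replicate numbers pair no samples across groups. With only 1 of P7 libraries 1 and 2, whose titles share a number, P10 vs P7 gave 13 (without P7 1) or 10 calls (without P7 2). Members below 1 CPM rest on few counts, and their folds are the least certain.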
